A study of Oryza sativa with 24 samples.

Results

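Distant DNA methylation peaks are described here: the peaks of the Nipponbare DNA methylation list that were under 5000 bp wide and lay more than 10 kb from every Nipponbare peak of H3K4me3, H3K9ac and H3K27me3. They numbered 2754 of the 24126 peaks in that list (11.4%), and all lay on chromosomes 1 to 12. The remaining 20948 nuclear peaks of the same width range, here called nearer peaks, served as the comparison. The choice used the positions and widths of the Nipponbare lists, so the distances and the Nipponbare histone state of the distant peaks are given as description. The lists of the other 3 lines took no part in the choice.

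The material was rice shoots at the 4-leaf stage after 4 weeks of growth in soil. Plants were of Nipponbare, a japonica rice, of 93-11, an indica rice, and of the first-generation hybrids from crossing them both ways, which the labels call Nipponbare/93-11 and 93-11/Nipponbare. The labels do not state which name is the seed parent, how many plants were pooled or which parental genome a hybrid's peak came from. Each of the 4 marks had 1 library in each line, so no difference between lines could be tested and no p-value is given. Intervals are exact Clopper-Pearson 95% intervals over peaks and cover counting error only.

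Cytosine methylation in plants is densest over transposons and other repeats, above all in the heterochromatin around centromeres, where it helps to keep these elements silent. It is copied at each round of DNA replication and is reinforced by small RNAs and by methylated histone H3. H3K4me3 and H3K9ac mark the starts of transcribed genes, and H3K27me3 is set by Polycomb complexes at genes held silent. McrBC, the enzyme used for these libraries, cuts DNA that carries methylated cytosines. A peak in a list of whole shoots can come from all cells or from part of them.

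The DNA methylation lists held 22332 (93-11) to 24695 (93-11/Nipponbare) peaks, and the 12 histone lists held 17479 to 31943. Peak lists carry no height, score or p-value, so a region is either listed or not listed in a line. Read depth is unknown, and its part in the length of a list or in a missing peak was not tested. Positions are given as the files give them, and the genome build is not stated in the sources used here.

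Distant peaks lay mostly in the inner parts of the chromosomes. Of the 2754, 1976 (71.8%, interval 70.0 to 73.4%) had their centre between 25 and 75% of the chromosome span, against 54.0% of the nearer peaks. The outer 10% at either end held 276 of the distant peaks (interval 8.93 to 11.2%), against 16.6% of the nearer ones. By the choice, distant peaks can lie only where Nipponbare histone peaks are more than 10 kb away. How much of that span lies in each zone was not counted, so these shares are a description. In the map of relative positions, the densest cells were on chromosome 8 between 55 and 60% of the span, with 33.2 peaks per Mb, and on chromosome 9 between 35 and 40%, with 32.2 peaks per Mb. Some chromosome starts were dense too. Chromosome 9 had 23.5 and 26.1 peaks per Mb in the first and second 5% of its span, chromosome 4 had 13.6 and 22.1, and chromosome 10 had 14.9 in the second. Of 378 windows of 1 Mb, 67 windows held 50% of the distant peaks and 75 held none.

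**Figure D1:**
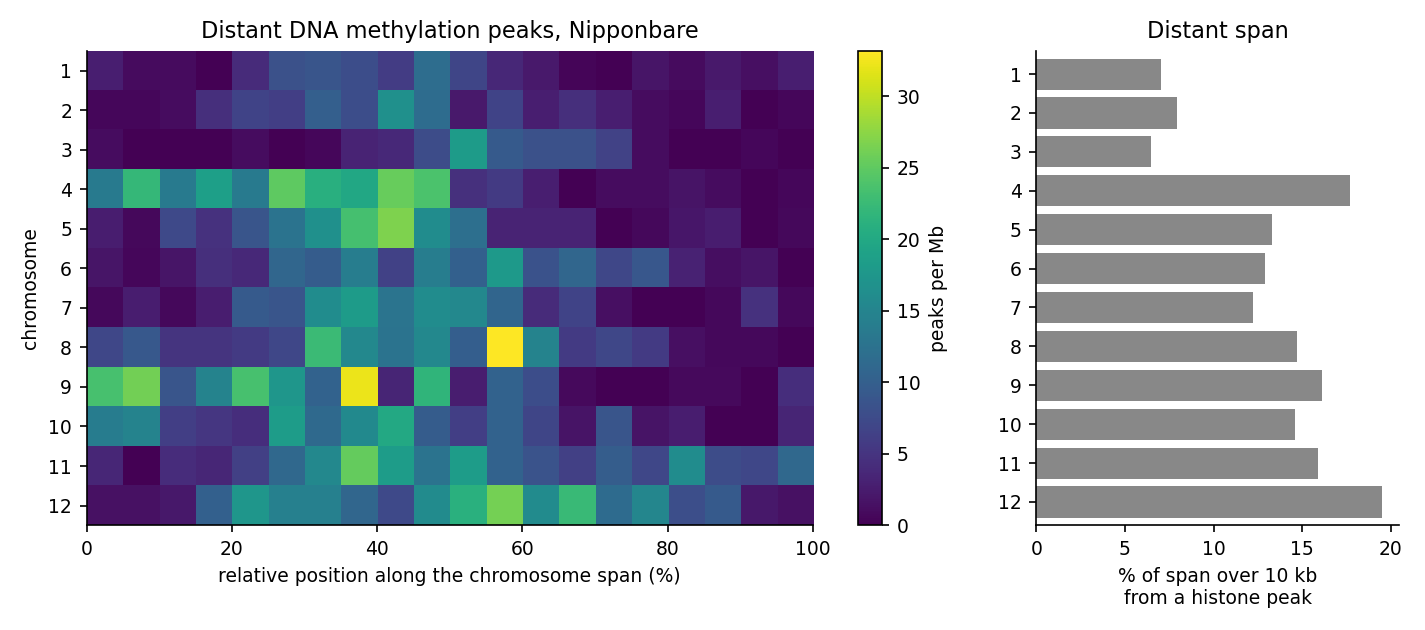
Left, distant peaks per Mb (colour) in 20 equal parts of each chromosome's span (x axis, percent; y axis, chromosome). Right, the share of each chromosome's span more than 10 kb from a Nipponbare histone peak (percent), which runs from 6.46% on chromosome 3 to 19.5% on chromosome 12; bright cells lie mostly in the inner parts, with others at the starts of chromosomes 4, 9 and 10.

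Chromosomes differed more in distant peaks per Mb of chromosome than in distant peaks per Mb of histone-free span. Chromosome 12 had the most per Mb of its span (11.5 per Mb, 316 peaks), followed by chromosome 4 (10.8 per Mb, 380 peaks), chromosome 9 (10.5) and chromosome 11 (10.2). Chromosome 3 had the fewest (3.49 per Mb, 127 peaks), next to chromosome 1 (3.69 per Mb, 161 peaks). The span more than 10 kb from any Nipponbare histone peak, here the distant span, made up 17.7% of chromosome 4 and 7.05% of chromosome 1. Counted per Mb of this distant span, the 12 chromosomes were closer to each other, from 52.4 on chromosome 1 to 65.0 on chromosome 9. In all, the distant span came to 47.2 Mb, or 12.7% of the 372 Mb covered by the lists.

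Methylation peaks covered more of the distant span than of the rest, and they did so in the lists of all 4 lines. Nipponbare peaks covered 15.7% of the bases of the distant span and 11.0% of the rest, or 12.8% of the rest when bases under histone peaks were left out. In 93-11 the shares were 12.6 and 10.3%, in Nipponbare/93-11 15.8 and 12.5%, and in 93-11/Nipponbare 16.2 and 12.6%. Peaks were wider there but not more numerous than outside histone peaks in the rest. By peak centres, the distant span held 66.7 Nipponbare peaks under 5000 bp per Mb, against 63.3 in the rest and 73.8 in the rest without bases under histone peaks. The median width of distant peaks was 1705 bp (quartiles 1260 and 2539 bp), against 1422 bp for nearer peaks.

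Most stretches of the distant span held at most 1 distant peak, and those with none were short. The distant span fell into 3182 stretches. Of these, 1844 (58.0%) held no distant peak and had a median length of 4242 bp, against 19228 bp for stretches with distant peaks. A further 690 held 1, 321 held 2, 263 held 3 to 5 and 64 held 6 or more. Whether distant peaks grouped beyond what stretch length gives was not tested. The 64 stretches with 6 or more, 5.02 Mb in all, carried 474 of the peaks. The nearest other methylation peak of Nipponbare lay at a median of 4114 bp from a distant peak, against 4800 bp for nearer peaks. In gaps over 100 kb, of which there were 46, there were 49.2 distant peaks per Mb of distant span, against 65.9 in gaps of 50 to 100 kb. Methylation peaks of any width covered 15.1 and 15.5% of the distant span of these gaps.

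The distance to the nearest histone peak had a median of 15822 bp and reached 197432 bp. H3K9ac was the nearest mark for 1546 of the peaks, H3K27me3 for 774 and H3K4me3 for 434. The Nipponbare H3K9ac list was also the longest, with 30323 peaks, against 17479 of H3K27me3 and 28273 of H3K4me3. The nearest mark of nearer peaks was not counted. At the limit of the choice, the 2 peaks just inside lay 10006 and 10007 bp away, on chromosomes 12 and 3, and the 2 just outside lay 9999 and 9997 bp away, on chromosomes 2 and 12. For width, the 2 peaks just inside measured 4941 and 4932 bp, both on chromosome 12, and the 2 just outside measured 5006 and 5012 bp. A further 87 peaks beyond 10 kb were 5000 bp or wider and were not counted as distant peaks.

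The 5 peaks farthest from any histone mark all stood in 1 gap, chr7:11908894-12323100. This gap of 414 kb was the longest without a Nipponbare histone peak and held 12 distant peaks. Of these 12, 4 were listed in 93-11, 4 in Nipponbare/93-11, 4 in 93-11/Nipponbare, 2 in all 4 lines and 6 in Nipponbare alone. The farthest, from 12106326 to 12109293, lay 197432 bp from a histone peak and was 2967 bp wide. It was not listed in 93-11 and was matched by peaks of 4121 bp in Nipponbare/93-11 and 3021 bp in 93-11/Nipponbare. Its neighbour from 12099054 to 12100530 was 1476 bp wide in Nipponbare and listed in every line, with widths of 3144 bp in 93-11, 3152 bp in Nipponbare/93-11 and 6068 bp in 93-11/Nipponbare.

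Next in distance came the peak from 12072772 to 12074176, which 93-11 listed and neither hybrid did. The peak from 12065383 to 12066411 was listed in Nipponbare alone, and that from 12054713 to 12056296 in Nipponbare and both hybrids. Neighbours a few kb apart thus had different states in the other lines. Within this gap 93-11 had 1 H3K4me3, 3 H3K9ac and 1 H3K27me3 peaks, 93-11/Nipponbare had 1 H3K27me3 peak and Nipponbare/93-11 had no histone peak. The 93-11 histone peaks brought a mark to within 1863 bp of the peak at 12054713, which lay 145819 bp from one in Nipponbare.

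The other 4 gaps richest in distant peaks held at most 3 histone peaks in any other line. At chr4:16015734-16180330, 14 distant peaks stood in 165 kb, the most in any gap. There 8 were listed in all 4 lines and 3 in Nipponbare alone, and the gap held 16 methylation peaks of Nipponbare, 11 of 93-11, 12 of Nipponbare/93-11 and 17 of 93-11/Nipponbare. At chr3:19698627-19821235, no line listed any histone peak, and methylation peaks numbered 11, 6, 7 and 5 in that order of lines. The gap chr6:18513031-18746191 (233 kb) also had no histone peak in any line, but methylation peaks were fewest in Nipponbare there, at 13 against 16 in 93-11, 20 in Nipponbare/93-11 and 16 in 93-11/Nipponbare. At chr8:15640682-15777667, 11 distant peaks included none that was in Nipponbare alone.

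The windows of 1 Mb with most distant peaks lay on chromosome 4 from 10 to 11 Mb (41 peaks), chromosome 8 from 16 to 17 Mb (34), chromosome 4 from 12 to 13 Mb (33) and chromosome 5 from 10 to 11 and from 12 to 13 Mb (32 each). Sharing differed among them. In the first of these windows 93-11 listed 8 of 41 peaks, Nipponbare/93-11 14 and 93-11/Nipponbare 19. In the chromosome 5 window from 10 to 11 Mb, 93-11 listed 19 of 32, Nipponbare/93-11 15 and 93-11/Nipponbare 20. The window from 12 to 13 Mb of that chromosome had 9, 10 and 9 of 32.

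Distant peaks were listed in every other line less often than nearer peaks. A peak was counted as listed in a line when at least 1 bp overlapped a methylation peak of that line. In 93-11, 1292 distant peaks (46.9%, 45.0 to 48.8%) were listed, against 55.6% (54.9 to 56.3%) of nearer peaks and 54.6% of all Nipponbare peaks under 5000 bp. In Nipponbare/93-11 the number was 1507 (54.7%, 52.8 to 56.6%), against 64.5% of nearer peaks and 63.4% of all. In 93-11/Nipponbare it was 1695 (61.5%, 59.7 to 63.4%), against 73.2% of nearer peaks and 71.8% of all. The intervals of distant and nearer peaks did not overlap in any of the 3 lines.

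All 4 lines listed 1029 distant peaks (37.4%, 35.6 to 39.2%), against 48.0% of nearer peaks and 46.8% of all. Nipponbare alone listed 776 (28.2%, 26.5 to 29.9%), against 19.8% of nearer peaks and 20.7% of all. Both hybrids listed 1311 (47.6%), where the share over all peaks was 58.0%, and neither hybrid listed 863 (31.3%), where it was 22.8%. In the chart of classes, those with a single hybrid or without hybrids were each small. Nipponbare with 93-11/Nipponbare held 279 distant peaks, Nipponbare with Nipponbare/93-11 held 125, both parents with 93-11/Nipponbare 105, both parents alone 87 and both parents with Nipponbare/93-11 71.

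**Figure D2:**
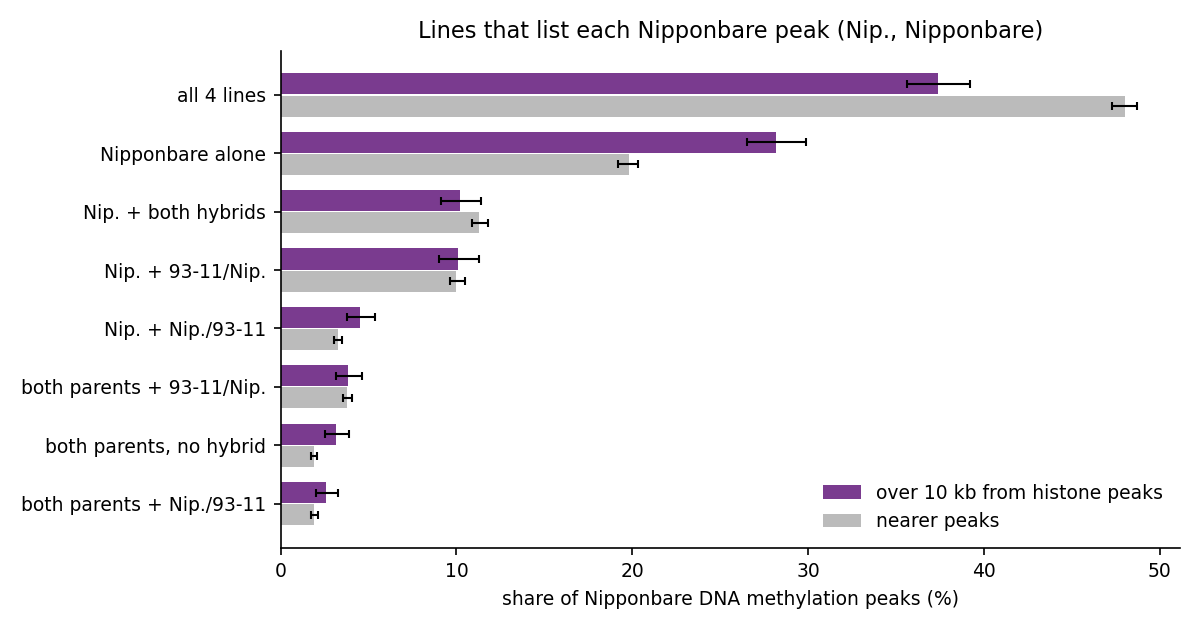
Share of distant (purple) and nearer (grey) Nipponbare methylation peaks in each class of lines that list them (x axis, percent), with exact 95% intervals as error bars. Distant peaks stand at 37.4% in all 4 lines against 48.0% of nearer ones, and at 28.2% in Nipponbare alone against 19.8%.

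Sharing was level within 2 kb of a histone peak and lower beyond. In 93-11 it was 56.4% for peaks that overlapped a Nipponbare histone peak, 57.4% at 1 to 2 kb, 52.4% at 5 to 10 kb and 49.4% (46.7 to 52.2%) at 10 to 15 kb. From 15 to 50 kb it lay between 42.9 and 46.9%, with intervals that overlapped each other. In 93-11/Nipponbare the same sequence ran from 75.1% at overlapping peaks to 68.4% at 5 to 10 kb and 63.1% (60.4 to 65.8%) at 10 to 15 kb. The 65 peaks over 50 kb away had the lowest shares, at 40.0% (28.0 to 52.9%) in 93-11, 41.5% in Nipponbare/93-11 and 44.6% (32.3 to 57.5%) in 93-11/Nipponbare. The change with distance thus began before the limit of 10 kb.

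**Figure D3:**
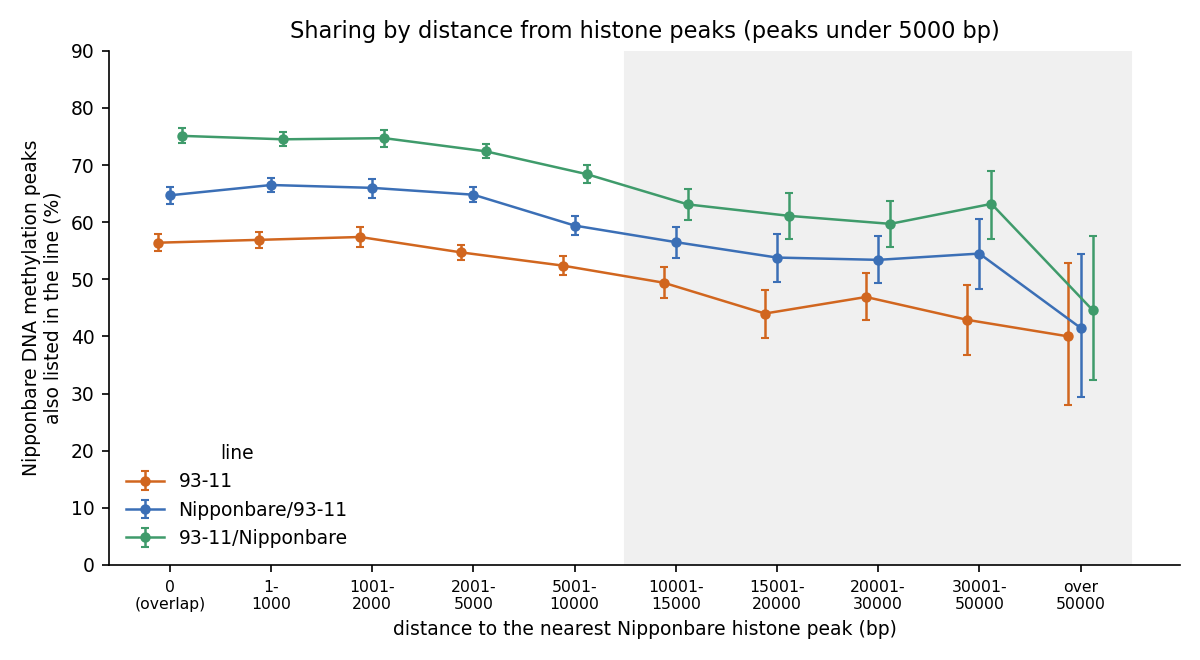
Share of Nipponbare methylation peaks under 5000 bp that 93-11 (orange), Nipponbare/93-11 (blue) and 93-11/Nipponbare (green) also list (y axis, percent), by distance to the nearest Nipponbare histone peak (x axis, bp; unequal classes), with exact 95% intervals. Grey shading marks the distant peaks; 93-11 goes from 56.4% at overlapping peaks to 40.0% beyond 50 kb.

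The lower sharing of distant peaks held on each of the 12 chromosomes and, for 93-11, in each class of width. Distant peaks were listed less often than nearer ones on 12 of 12 chromosomes in 93-11, in both hybrids and in all 4 lines together. Shares in 93-11 ran from 42.5% on chromosome 8 to 51.3% on chromosome 7. In peaks under 1000 bp wide, 36.7% of distant and 44.2% of nearer peaks were listed in 93-11. At 1500 to 2000 bp the shares were 49.2% (45.1 to 53.2%) and 61.9% (60.5 to 63.4%), and at 2000 to 3000 bp 46.0% and 64.2%. The contrast was smallest at 3000 to 5000 bp, with 57.1% (52.3 to 61.9%) and 60.9% (58.5 to 63.2%), where the intervals overlapped.

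Among the distant peaks that 93-11 did not list, more than 50% were missing from both hybrids. Of these 1462, 776 (53.1%, 50.5 to 55.7%) were in neither hybrid, against 44.5% of nearer peaks with that parental state and 45.7% of all. Both hybrids listed 282 (19.3%, 17.3 to 21.4%), against 25.5% of nearer peaks and 24.7% of all. The hybrids differed from each other in this class. That labelled 93-11/Nipponbare listed 561 (38.4%, 35.9 to 40.9%; 46.8% of all) and that labelled Nipponbare/93-11 listed 407 (27.8%, 25.6 to 30.2%; 32.2% of all). This direction rests on the labels of the 2 libraries.

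Distant peaks of both parents were kept by the hybrids in most cases. Of the 1292 listed in 93-11, both hybrids listed 1029 (79.6%, 77.3 to 81.8%), against 86.4% of nearer peaks and 85.7% of all. Nipponbare/93-11 listed 1100 (85.1%; 89.4% of all) and 93-11/Nipponbare 1134 (87.8%; 92.6% of all), so the hybrids were closer here than at peaks missing from 93-11. Neither hybrid listed 87 (6.73%, 5.43 to 8.24%), against 3.40% (3.08 to 3.74%) of nearer peaks and 3.73% of all. These 87 were wide, with a median of 2130 bp against 1757 bp for distant peaks of all 4 lines. Nearer peaks of the same 2 classes had medians of 1734 and 1509 bp. Distant peaks of both parents with Nipponbare/93-11 but not the other hybrid were also wide, at 2100 bp.

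The contrast between distant and nearer peaks depended on the line in which the peaks were looked up. The same rule was applied to the peaks and histone lists of each line in turn, which gave 2693 distant peaks in 93-11, 2085 in Nipponbare/93-11 and 2092 in 93-11/Nipponbare. Distant 93-11 peaks were listed in Nipponbare in 57.4% of cases (55.5 to 59.3%) and nearer ones in 58.5% (57.8 to 59.2%). Distant peaks of Nipponbare/93-11 were listed in Nipponbare in 62.9% (60.8 to 65.0%) of cases and nearer ones in 62.1%, and for 93-11/Nipponbare the shares were 70.7% (68.7 to 72.7%) and 69.4%. Toward Nipponbare, then, the difference was at most 1.30 points and the intervals overlapped in all 3 lists. In the other 9 directions distant peaks were shared less, by 3.53 to 11.6 points.

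**Figure D4:**
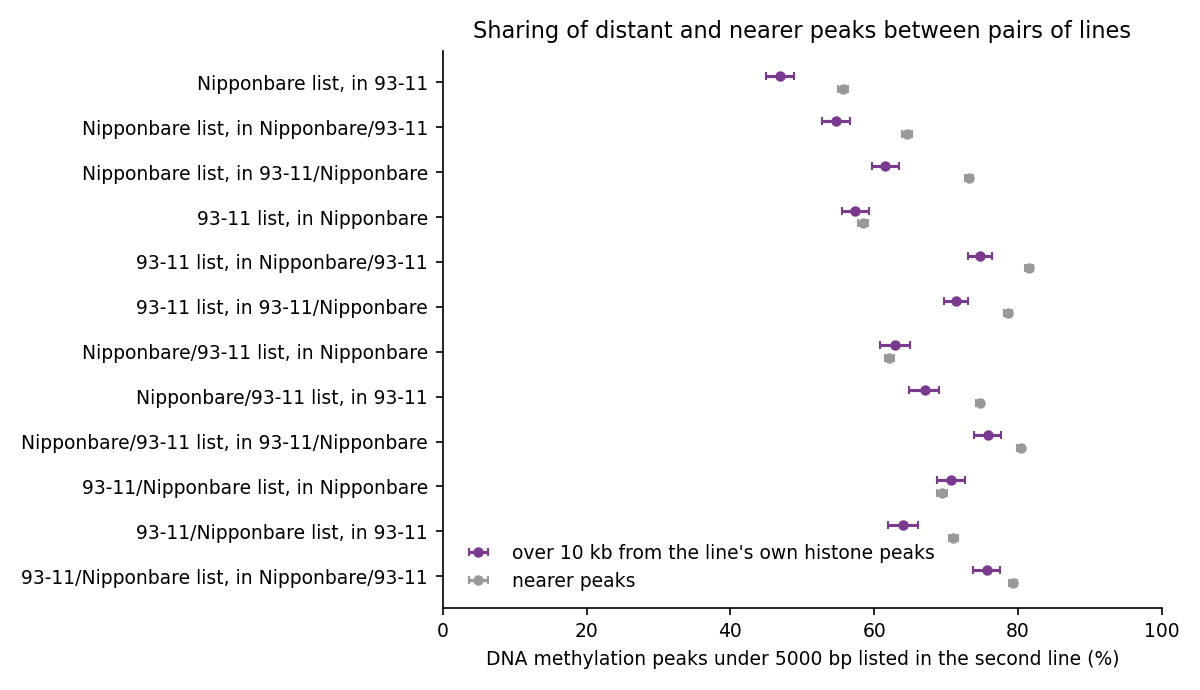
Share of the methylation peaks under 5000 bp of the first line that the second line also lists (x axis, percent), for peaks over 10 kb from the first line's own histone peaks (purple) and nearer peaks (grey), with exact 95% intervals. In the 3 rows that end in Nipponbare the points lie within 1.30 points of each other, and in the other 9 the distant peaks are lower.

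Nipponbare also listed more peaks than the other lines in its own distant span. With the Nipponbare histone lists fixed, that span held 2754 peaks under 5000 bp of Nipponbare, 2158 of 93-11, 2279 of Nipponbare/93-11 and 2287 of 93-11/Nipponbare. As shares of each line's peaks under 5000 bp these were 11.6%, 9.84%, 9.64% and 9.56%. The distant peaks of the other lines were wider, with medians of 1770, 1947 and 1921 bp. Nearer peaks of the hybrids were wider as well, at 1552 bp in Nipponbare/93-11 and 1532 bp in 93-11/Nipponbare, against 1422 bp in Nipponbare. Those of 93-11 were not, at 1412 bp. The span without histone peaks differed as well, since by their own lists 58.3 Mb of 93-11 lay beyond 10 kb from a histone peak, against 44.3 Mb in Nipponbare/93-11 and 44.6 Mb in 93-11/Nipponbare. The distant span of 93-11 took in 80.1% of that of Nipponbare. In the distant span of each other line, Nipponbare likewise listed more peaks under 5000 bp than that line itself. The counts were 3564 against 2693 for 93-11, 2561 against 2085 for Nipponbare/93-11 and 2584 against 2092 for 93-11/Nipponbare.

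The mirror class was made of 93-11 peaks in the Nipponbare distant span that Nipponbare did not list. Both hybrids listed 346 of these 892 (38.8%, 35.6 to 42.1%), against 49.6% of nearer 93-11 peaks missing from Nipponbare and 48.5% of all such peaks. Neither hybrid listed 277 (31.1%, 28.0 to 34.2%), against 23.2% of nearer peaks and 23.9% of all. Nipponbare/93-11 listed 522 (58.5%, 55.2 to 61.8%; 68.2% of all) and 93-11/Nipponbare 439 (49.2%, 45.9 to 52.6%; 56.4% of all). Each hybrid listed a larger share of 93-11-only than of Nipponbare-only peaks, and the hybrids stood in opposite order for the 2 parents. Both held over all peaks of the lists as well, at 68.2 and 56.4% for 93-11-only against 32.2 and 46.8% for Nipponbare-only peaks.

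Where a distant peak was listed in another line by a single peak, the starts differed by a median of 125 bp in 93-11, 132 bp in Nipponbare/93-11 and 99.0 bp in 93-11/Nipponbare. Both edges lay within 200 bp in 471 of 1287 peaks in 93-11 (36.6%), 586 of 1505 in Nipponbare/93-11 (38.9%) and 812 of 1693 in 93-11/Nipponbare (48.0%). For nearer peaks the shares were 41.4, 42.0 and 50.5%, each above that of the distant peaks. The matching peak was wider than that of Nipponbare in 55.0% of cases in 93-11, 68.6% in Nipponbare/93-11 and 72.7% in 93-11/Nipponbare, against 53.6, 68.9 and 71.8% for nearer peaks. Peaks of 5000 bp or more made 40, 59 and 53 of the matches. Of the distant peaks that 93-11 did not list, 114 of 1462 (7.80%) had a 93-11 peak within 1000 bp and 376 (25.7%) had none within 10 kb. The nearer peaks were close to this, with 934 of 9299 within 1000 bp and 26.4% with none within 10 kb.

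Methylation lists of all 4 lines were sparse at 2 kb from the centres of distant peaks and denser at 10 kb, as around nearer peaks. Peaks of both sets were chosen under 5000 bp wide, and most ended before 2 kb from their centre. The low Nipponbare values at 2 kb are thus partly set by the choice. The centre of a distant peak was covered in 45.5% of cases in 93-11, 54.0% in Nipponbare/93-11 and 61.3% in 93-11/Nipponbare. At 2 kb to either side Nipponbare peaks covered 5.70 and 5.08% of positions, and at 10 kb 18.3 and 16.8%. Around nearer peaks the values were 4.77 and 4.84% at 2 kb and 12.1% on both sides at 10 kb. In 93-11 the values were 6.83 and 6.46% at 2 kb, and 13.9% at 10 kb to the left, against 5.87, 6.19 and 10.8% around nearer peaks.

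**Figure D5:**
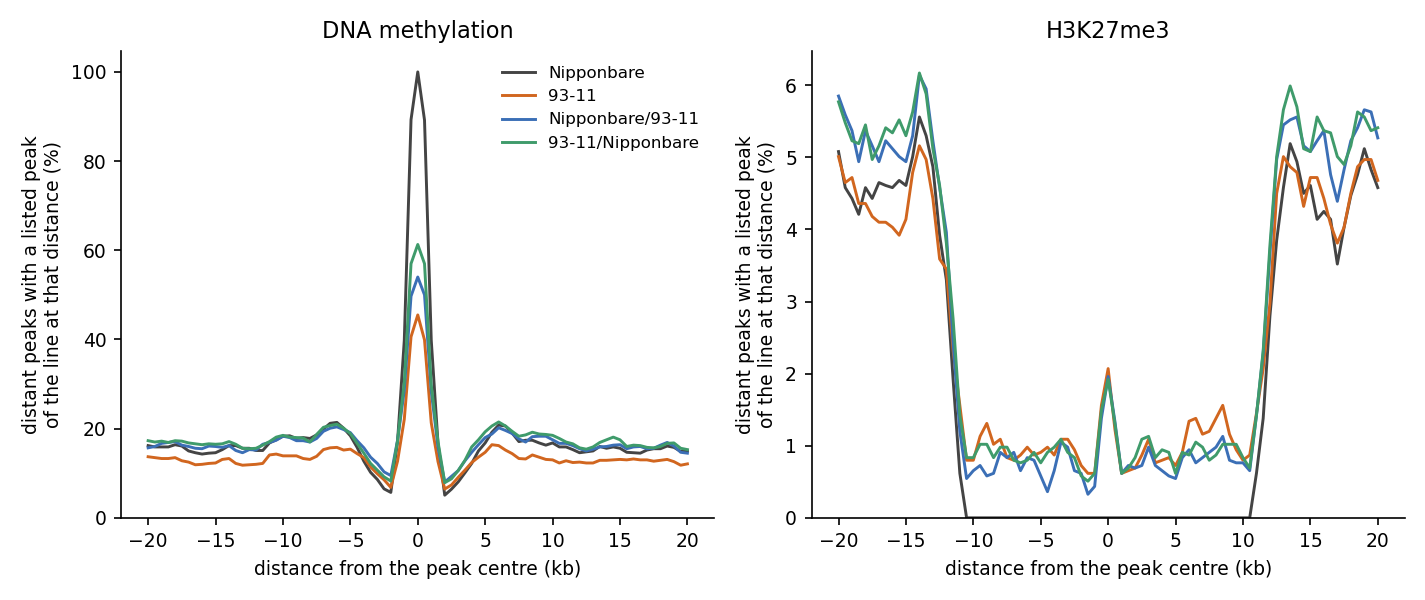
Share of distant peaks (y axis, percent) at which a methylation peak (left) or an H3K27me3 peak (right) of each line lies at a given distance from the peak centre (x axis, kb, in steps of 500 bp; 1 line colour for each rice line). Left, the centres are at 45.5 to 61.3% in the 3 other lines; right, Nipponbare is at 0 within 10 kb by the choice of peaks, and the other lines rise to at most 2.07% at the centre.

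Most distant peaks were far from histone marks in the other lines too. In 93-11, 2111 (76.7%) lay more than 10 kb from every histone peak of that line, against 15.0% of all Nipponbare peaks under 5000 bp. The shares were 80.6% in Nipponbare/93-11 (10.8% of all) and 79.0% in 93-11/Nipponbare (10.9% of all), and 1883 (68.4%, 66.6 to 70.1%) were distant in all 4 lines. Of these 1883, 44.6% were listed for methylation in 93-11 and 31.0% in Nipponbare alone, against 51.9 and 22.2% of the 871 that came within 10 kb of a histone peak in at least 1 other line.

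A histone peak overlapped few distant peaks in the other lines. These were 109 in 93-11 (3.96%, 3.26 to 4.75%), 97 in Nipponbare/93-11 (3.52%) and 106 in 93-11/Nipponbare (3.85%). Of all Nipponbare peaks under 5000 bp with no Nipponbare histone peak on them, the shares were 6.34, 5.77 and 6.29%. H3K27me3 was the most frequent mark, on 72, 65 and 66 distant peaks, and it stood without H3K4me3 and H3K9ac on 49, 53 and 56. H3K4me3 lay on 45, 28 and 38 and H3K9ac on 50, 33 and 28. H3K27me3 was also the most frequent of these marks at the centres of nearer peaks, covering 4.29% in 93-11, 4.93% in Nipponbare/93-11 and 4.82% in 93-11/Nipponbare. In 93-11, methylation was listed on 37 of the 109 overlapped peaks (33.9%, 25.1 to 43.6%) on 51.9% of those within 10 kb of a 93-11 histone peak without overlap, and on 46.3% (44.2 to 48.5%) of those still distant there. The hybrids did not show this order. In Nipponbare/93-11 the shares were 53.6, 60.8 and 53.6%, and in 93-11/Nipponbare 64.2, 68.2 and 60.0%.

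Histone peaks of the other lines met distant peaks more often at the centre than beside it. H3K4me3 peaks of 93-11 covered 1.45% of the centres and 0.145 and 0.508% of positions 3 kb to the left and right. H3K9ac of 93-11 stood at 1.53% against 0.436 and 0.726%, and H3K27me3 at 2.07% against 1.09% on both sides. In both hybrids each of the 3 marks was also higher at the centre than at 3 kb on either side, with 19 to 54 centres covered per mark and hybrid. Nearer peaks showed the opposite order for each of the 3 marks in 93-11 and in both hybrids. There H3K27me3 of 93-11 stood at 4.29% against 10.3 and 10.8%, and H3K9ac at 3.96% against 12.9 and 12.8%. By the choice, Nipponbare histone peaks were absent both at the centre of distant peaks and 3 kb beside it. The part of this choice in the low values at 3 kb was not tested.

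For 54 distant peaks (1.96%), on 11 of the 12 chromosomes, each of the other 3 lines had a histone peak on the site. Nipponbare had none within 10 kb. The share of all Nipponbare peaks in this state was not counted. In each single line, histone overlap was rarer on distant peaks than on all peaks without a Nipponbare histone peak, at 3.52 to 3.96% against 5.77 to 6.34%. H3K27me3 was listed in all 3 lines on 27 of the 54 sites, H3K4me3 on 19 and H3K9ac on 17. Methylation of these sites was listed in 93-11 on 14, in Nipponbare/93-11 on 20 and in 93-11/Nipponbare on 31. These are 25.9% (15.0 to 39.7%), 37.0% (24.3 to 51.3%) and 57.4% (43.2 to 70.8%), beside 46.9, 54.7 and 61.5% of all distant peaks. Methylation was listed in Nipponbare alone on 22 (40.7%, 27.6 to 55.0%), an interval that holds the 28.2% of all distant peaks. The widest of them, at chr4:12890760-12894674 (3914 bp), lay 33668 bp from a Nipponbare histone peak. It overlapped H3K4me3 and H3K9ac in 93-11, H3K9ac in Nipponbare/93-11 and H3K4me3 in 93-11/Nipponbare, and methylation was also listed in 93-11/Nipponbare. On the same chromosome from 3411562 to 3414711, H3K27me3 was listed in all 3 other lines and methylation in all 4.

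Other overlaps were seen in fewer lines. At chr2:11265377-11268287, 93-11 listed H3K9ac and no methylation peak. Nipponbare/93-11 listed a methylation peak there and had its nearest histone peak 31262 bp away. At chr9:13117834-13122070, 93-11/Nipponbare listed H3K27me3 but no methylation peak, and Nipponbare/93-11 listed methylation but no H3K27me3 peak. At chr8:13352822-13356668, both hybrids listed H3K4me3 and H3K9ac and no methylation peak, and 93-11/Nipponbare listed H3K27me3 as well. There 93-11 listed a methylation peak, with its nearest histone peak 3013 bp away. At this site the lists of the hybrids differed from those of both parents. An unlisted peak does not show that a mark is absent.

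The widest distant peaks of all 4 lines differed in extent between lines. At chr4:14519235-14524073 the peak measured 4838 bp in Nipponbare, 1359 bp in 93-11, 3314 bp in Nipponbare/93-11 and 4945 bp in 93-11/Nipponbare, with starts from 14519157 to 14519235. At chr11:12263243-12267685 the widths of the 4 lines, listed likewise, were 4442, 1685, 2345 and 4313 bp. At chr6:8455281-8459853 they were 4572, 2532, 3009 and 5031 bp. In these 3 regions, chosen by Nipponbare width, the 93-11 peak was the narrowest and those of Nipponbare and 93-11/Nipponbare were the widest.

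The widest in Nipponbare alone lay at chr12:12597963-12602895 (4932 bp), chr7:12046418-12051324 (4906 bp) and chr5:6419536-6424323 (4787 bp). At the first, the nearest histone peak was 13100 to 13171 bp away in each of the 4 lines. Those of Nipponbare and both hybrids lay at chr12:8418606-8423356, chr8:1349125-1353264 and chr9:22970994-22975043. The hybrid peaks covered part of the first and were 1175 and 1728 bp wide, against 4750 bp in Nipponbare. They covered all or nearly all of the last, with widths of 3883 and 4133 bp against 4049 bp.

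Peaks of both parents and neither hybrid were widest at chr12:2266834-2271775, chr7:12002385-12007217 and chr5:14480370-14484475. The first measured 4941 bp in Nipponbare and 6937 bp in 93-11. At this site both hybrids and 93-11 had a histone peak 3664 to 3806 bp away. Peaks with a single hybrid included chr7:27086810-27091663 and chr4:16948538-16953306, seen in Nipponbare and Nipponbare/93-11. Those in Nipponbare and 93-11/Nipponbare included chr12:7253856-7258700 (4844 bp, and 4916 bp in the hybrid) and chr3:19776366-19780869 (4503 and 4720 bp).

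Peaks of both parents with 1 hybrid were near-identical in extent at some sites. At chr11:501593-506304 the width was 4711 bp in Nipponbare, 4750 bp in 93-11 and 5038 bp in 93-11/Nipponbare, and Nipponbare/93-11 listed none. At chr2:8625035-8629279 the widths were 4244, 4144 and 4195 bp in the same lines. With Nipponbare/93-11 in place of the other hybrid, the widest lay at chr6:12232584-12236778 (4194, 2918 and 2940 bp) and chr4:2322504-2326584 (4080, 2990 and 3024 bp). The latter was 42272 bp from a histone peak in Nipponbare and 133 to 143 bp from one in each other line.

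Distant peaks missing from 93-11 formed runs in places. Consecutive distant peaks not listed in 93-11 made 63 runs of 5 or more, holding 432 peaks, and the 1029 peaks of all 4 lines made 22 such runs with 128 peaks. The number of runs that chance would give was not estimated. At chr4:10226803-10357623 (131 kb), 11 distant peaks in a row were missing from 93-11, with 1 listed in Nipponbare/93-11 and 4 in 93-11/Nipponbare. The block held 15 methylation peaks of Nipponbare against 4 of 93-11, 5 of Nipponbare/93-11 and 8 of 93-11/Nipponbare. It held no H3K4me3 peak of Nipponbare against 4 of 93-11 and 3 of each hybrid. For H3K9ac and for H3K27me3 it held 1 peak of Nipponbare, 3 of 93-11 and 1 of each hybrid. The block was chosen by Nipponbare peaks that 93-11 lacks and that lie far from Nipponbare histone peaks, so these Nipponbare and 93-11 counts are a description.

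At 2 peaks of this block, from 10347259 to 10348847 and from 10356078 to 10357623, 93-11 carried H3K4me3, H3K9ac and H3K27me3 and both hybrids carried H3K4me3. In Nipponbare the nearest histone peaks were 53309 and 47935 bp away. Methylation of the first was also listed in 93-11/Nipponbare, at 1471 bp, and that of the second in no other line. A run of 12 peaks at chr3:18788634-19424151 (636 kb) was listed at 0 peaks in Nipponbare/93-11 and 1 in 93-11/Nipponbare. Histone peaks there did not follow this pattern, since H3K4me3 had 16 peaks in Nipponbare, 10 in 93-11, 15 in Nipponbare/93-11 and again 16 in 93-11/Nipponbare.

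The longest run by number, 13 peaks at chr7:5399352-6933345, was spread over 1534 kb among 118 Nipponbare methylation peaks. Its members were listed 5 times in Nipponbare/93-11 and 7 times in 93-11/Nipponbare. Runs of peaks listed in all 4 lines reached 8 at chr2:8664264-10220856 and at chr11:1007411-3955866, and 7 at chr12:6261898-6536875. The last was the most compact, at 275 kb. It contained 12 H3K4me3 peaks of Nipponbare, 3 of 93-11, 11 of Nipponbare/93-11 and 10 of 93-11/Nipponbare, while the 7 distant methylation peaks were listed in each line.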

How the data were processed

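The 16 deposited lists give the chromosome, start and end of peak regions of 1 library each, with no header, as the authors' files hold them. DNA methylation libraries were made with McrBC digestion and histone libraries by immunoprecipitation, per the labels' protocols. For the aligner, the peak caller and its threshold, and the genome build, the entry is the same: not given in the sources used here. No gene annotation or genome sequence was used. Samples of mRNA and small RNA, 8 in all, are not analysed here.

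Width is end minus start. Distance is between nearest edges, and overlapping peaks are at 0. Listed means an overlap of at least 1 bp. The span of a chromosome ends at the last peak of any list. Plastid and mitochondrial peaks were left out. Regions named in the text were the farthest, the widest of each class, the gaps and windows with most peaks, and the longest runs. The 2 blocks described peak by peak were chosen after their values were seen. The distant peaks, lists and rules were chosen with earlier results of these data known. Distances, overlaps and covered bases equalled direct comparison for 400 of 400 peaks checked. Intervals came from scipy 1.17.1 and tables from pandas 2.3.3 and numpy 2.4.6, in Python 3.11.15, with figures from matplotlib 3.10.9. Alternatives covered overlap, distance and width limits, shorter lists, merging and the histone lists.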

Additional observations from a re-analysis of the deposited data

How the results depend on the processing

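Of 86 values under 8 alternatives, 55 stayed within the interval of the reported value (counts of peaks: within 1.5 times), 31 moved and 0 reversed. Reversed means a change of sign, which counts, densities and shares cannot show. Only the difference between hybrids and the difference from nearer peaks could reverse. The overlap setting could not alter the share far from 93-11 histone peaks, which is among the values that stayed. A distance over 5000 bp gave 6070 distant peaks, with 49.9% in 93-11, 50.7% in both hybrids, 40.3% in all 4 lines, 50.3% of 93-11-absent peaks in neither hybrid, 82.2% equally far from 93-11 histone peaks and a difference from nearer peaks of -6.29 points in 93-11. A distance over 20000 bp gave 917, 45.6% in both hybrids, 34.5% in all 4 lines and 67.3% equally far in 93-11. Overlap of 50% of both peaks gave 41.0% in 93-11, 42.7% in both hybrids and 32.6% in all 4 lines, with 59.2% of 93-11-absent peaks in neither and 17.1% in both hybrids. Lists at or above their median width gave 1734 peaks at 36.7 per Mb of distant span, 42.8% in 93-11, 41.8% in both hybrids and 32.6% in all 4 lines, with 55.7% in neither and 15.9% in both hybrids. Lists shortened to 22320 peaks gave 55.7 per Mb. Histone peaks of all 4 lines gave 54.2 per Mb, 44.6% in 93-11, 45.0% in both hybrids, 35.2% in all 4 lines, 55.9% in neither hybrid, 100% by construction for distance in 93-11 and -10.9 points against nearer peaks. The cause of the other moves was not tested. The difference between hybrids at 93-11-absent peaks (10.5 points) ran from 9.59 to 12.2. No replicate could be left out, with 1 library per mark and line. No paired analysis was possible because no group has replicates. Unknown depth limits what an unlisted peak means.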

Other observations

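Some hybrid peaks in the Nipponbare distant span were listed in neither parent. In Nipponbare/93-11 they were 353 of 2279 peaks under 5000 bp (15.5%), against 11.9% (11.5 to 12.3%) of its nearer peaks. In 93-11/Nipponbare they were 258 of 2287 (11.3%), against 9.33% (8.95 to 9.73%). The other hybrid listed 129 of the 353 (36.5%, 31.5 to 41.8%) and 123 of the 258 (47.7%, 41.4 to 54.0%), while it listed 76.1 and 75.3% of all peaks of each hybrid in this span. Among nearer peaks of neither parent, the other hybrid listed 35.2% (33.3 to 37.1%) and 43.9% (41.8 to 46.1%). Peaks of neither parent were narrower than those of a parent, with medians of 1755 and 1991 bp in Nipponbare/93-11 and of 1727 and 1936 bp in 93-11/Nipponbare.

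Across the 4 lines, 619 of the 2754 distant peaks (22.5%, 20.9 to 24.1%) overlapped a peak that was itself under 5000 bp and more than 10 kb from the histone peaks of its own line in each of the other 3 lines. This set combines methylation listed in all 4 lines with absence of histone peaks from all 4, each from a separate library. No share over all Nipponbare peaks was counted for it. Of the 1883 distant peaks that were far from histone peaks in all 4 lines, 663 (35.2%) were listed in all 4. That compares with 42.0% of the other 871 and 37.4% of all distant peaks.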
